A study of Mus musculus with 1615 samples.

Results

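Fibroblasts of the mouse colon that carried much Acta2 RNA, the transcript of smooth muscle α-actin, were compared with fibroblasts of the same animals that carried little. A fibroblast was a cell whose Pdgfra and Dpt added up to at least 200 CPM, with Dcn of at least 50 CPM, where CPM are counts scaled to a total of 1000000 per cell or per sum. Such a cell also had Notch3 under 200, Cdh5 and Epcam under 100 and Myh11 under 1000 CPM, which leaves out pericytes, endothelium, epithelium and most muscle. Acta2-high cells had at least 1000 CPM of Acta2 and Acta2-low cells under 500 CPM. These gates gave 73 high and 81 low cells of the 1615 cells of the series. Mouse 20GG79:1 supplied 38 high and 61 low cells, and mouse 20GG79:6 supplied 35 high and 20 low cells. Another 27 fibroblasts lay between the cuts, 19 and 8 in these mice, and entered neither group.

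Each cell was sequenced as a full-length Smart-Seq2 library without molecular identifiers, so reads are not independent molecules and every interval given here covers counting error only. Both mice belong to the dual reporter line ACTA2GFP:CSPG4dsRED, in which fluorescent proteins report Acta2 and Cspg4. No group differs by treatment or genotype: the high and low cells of a mouse came from the same animal and plate. The labels give an age of 8 to 30 weeks for both mice and call 20GG79:1 female and 20GG79:6 male, whereas the series text speaks of males alone. Each mouse filled 1 plate, so animal, sex and plate cannot be told apart. The tissue field says colon, while the dissociation text names another organ. How the reporters gated the sort is not given in the sources used here, so numbers of cells do not stand for shares in the tissue. The 2 mice are the only replicates. An exact permutation of 2 pairs cannot go below p = 0.5.

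Smooth muscle α-actin is shared by contractile muscle and by activated or specialised fibroblasts, the myofibroblasts, which pull on the matrix around them. In the intestine, fibroblasts rich in Pdgfra and in BMP ligands lie directly under the epithelium, and some of them are known as telocytes or subepithelial myofibroblasts. Fibroblasts rich in Cd34 and Pi16, or in the BMP inhibitor Grem1, lie deeper, around crypt bases and vessels. Many contractile genes are driven by serum response factor, which binds a short element called the CArG box. Myh11, Actg2 and Cnn1 encode the smooth muscle myosin heavy chain, the enteric γ-actin and calponin, which are typical of differentiated visceral muscle.

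The genes of the rule chose the cells and are given as description. Acta2 ran from 127.04 to 480.4 CPM, with a median of 293.2 CPM, over the low cells of 20GG79:1, and from 1047 to 6666 CPM, with a median of 2642 CPM, over its high cells. In 20GG79:6 the low cells ran from 79.9 to 492.6 CPM around a median of 242.05 CPM, and the high cells from 1026 to 6087 CPM around 2210 CPM. The gap is a cut through a continuous range. The highest low cell had 492.6 CPM, the cells between had 504.3 to 979.7 CPM, and the lowest high cell had 1026 CPM. Near the cuts, 10 low cells had 400 CPM or more and 9 high cells had under 1200 CPM. Myh11 reached 941 CPM inside the gate, and the nearest cell shut out by it had 1057 CPM.

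Fibroblast genes had high counts in both groups, as the rule requires. Pdgfra, the receptor for platelet-derived growth factor A, had a median of 360.1 CPM in the low and 1585 CPM in the high cells of 20GG79:1. In 20GG79:6 its medians were 482.9 CPM and 1579 CPM. Dcn, the matrix proteoglycan decorin, went the other way, with medians of 3924 CPM in low and 2124 CPM in high cells of 20GG79:1, and of 2522 CPM and 882 CPM in 20GG79:6. Visceral muscle cells of the same plates were defined by Myh11 and Acta2 of at least 1000 CPM with Pdgfra and Dpt together under 200 CPM. They also had Pln under 50, Notch3 under 200, and Cdh5 and Epcam under 100 CPM. Their Pdgfra medians were 8.43 CPM in 20GG79:1 (n = 110 cells) and 20.2 CPM in 20GG79:6 (n = 44 cells). The 10 fibroblast markers, 3 of which the rule used, added up to medians of 27375 and 21689 CPM in low and high cells of 20GG79:1 and of 27028 and 21208 CPM in 20GG79:6, against 8822 and 6885 CPM in the muscle cells. None of the 10 had a median of 0 in any of these sets, muscle cells included.

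Depth and RNA quality lay close together in the groups. Median gene counts per cell were 288979 in low and 335408 in high cells of 20GG79:1, and 227226 and 203946 in 20GG79:6. The median share of spike-in reads was 1.51% and 1.28% in the first mouse and 1.29% and 1.36% in the second. Mitochondrial reads made up a median of 0.896% and 0.837%, and of 0.613% and 0.619%.

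Elements that could be read by serum response factor were looked for in the 250 bases before each RefSeq start (build GRCm38.p6), to show what the promoters of some genes below hold. The CArG box has 2 C, 6 inner bases and 2 G, and it reads the same on both strands. Acta2 has 2 boxes with 1 inner G or C each, Myl9 has 1 perfect box with only A and T inside and 1 with a single G, and Vcl, which encodes vinculin, has 1 perfect box. Capitals mark the box in each 30-base stretch, which lies at chr19:34255438-34255467 and chr19:34255388-34255417 on the minus strand for Acta2. The stretches of Myl9 lie at chr2:156775293-156775322 and chr2:156775355-156775384, and that of Vcl at chr14:20929161-20929190, all on the plus strand.
Acta2, box farther from the start: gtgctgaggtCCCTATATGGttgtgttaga
Acta2, box nearer to the start: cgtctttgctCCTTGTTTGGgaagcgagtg
Myl9, perfect box, farther from the start: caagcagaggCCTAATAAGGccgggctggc
Myl9, box with 1 inner G, nearer to the start: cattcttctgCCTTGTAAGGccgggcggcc
Vcl, perfect box: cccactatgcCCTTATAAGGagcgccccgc
Perfect boxes stood in 1.47% of all 32851 promoter windows and boxes with up to 1 inner G or C in 8.59%. Of 25 contractile genes with a RefSeq promoter, 5 had a perfect box and 8 had either kind. No box stood in these windows of Mylk, Cnn1, Csrp1, Tpm1 or Tpm2, which says nothing of sites elsewhere. Tagln, Actg2 and Myh11 were not searched, because no RefSeq promoter entry was at hand for them.

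Several contractile genes outside the rule were far more abundant in the Acta2-high fibroblasts of both mice. Tagln encodes transgelin, an actin-binding protein of muscle and myofibroblasts. Its low cells ran from 7.62 to 202.3 CPM around a median of 25.9 CPM in 20GG79:1, and its high cells from 5.75 to 1228 CPM around 347.4 CPM. In 20GG79:6 the low cells had 7.17 to 365.9 CPM around 32.5 CPM and the high cells 12.1 to 1296 CPM around 611 CPM. The ranges overlapped, because some high cells kept Tagln as low as the low group: 28 of 38 and 27 of 35 high cells reached 100 CPM, against 2 of 61 and 2 of 20 low cells. Over the summed counts Tagln went from 32.9 to 449.6 CPM in the first mouse and from 78.3 to 617 CPM in the second, a log2 fold change of 3.38 ± 0.39 (SE, n = 2 mice; edgeR adjusted p = 0.132). Tagln overlaps Pcsk7, and the strand setting of the counting is not given in the sources used here.

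Myl9, the regulatory light chain that myosin needs to contract, had more counts in high cells as well. Its median was 107.99 CPM in low and 1145 CPM in high cells of 20GG79:1, and 115.5 CPM and 1125 CPM in 20GG79:6. The cells ranged from 27.95 to 1011 CPM (low) and from 71.5 to 3271 CPM (high) in the first mouse, and from 14.3 to 713 CPM and from 90.6 to 3697 CPM in the second. Its log2 fold change was 2.32 ± 0.29 (SE, n = 2 mice; edgeR adjusted p = 0.149), with more Myl9 in the high cells of 2 of 2 mice. The ranges overlapped in both animals. Muscle cells had medians of 2882 and 4088 CPM of Myl9, and of 1468 and 1999 CPM of Tagln, so high fibroblasts stayed below them.

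Other parts of the contractile apparatus were higher in the same direction without passing the threshold. Summed counts of Mylk, the kinase that activates Myl9, went from 168.3 to 916 CPM in 20GG79:1 but from 501.1 to 815 CPM in 20GG79:6. Flna, the actin cross-linker filamin A, went from 463.8 to 1316 CPM and from 348.8 to 1760 CPM (log2 fold change 1.93 ± 0.26, SE). Csrp1, a LIM domain protein, went from 187.5 to 684 CPM and from 255.8 to 616 CPM. Of 30 contractile genes, 12 were at least 2-fold higher in the high cells of both mice, on CPM + 1 of the sums: Tagln, Myl9, Flna, Csrp1, Tpm2, Pdlim3, Vcl, Actn1, Nexn, Lmod1, Actg2 and Cnn1. The share of all 14263 tested genes that did so was 5.51%. One member, Des, was at least 2-fold lower, as were 5.9% of all genes. The list had a median log2 fold change of 1.52, against 0.03 over all genes. No member passed the edgeR threshold (0.00701% of all genes did), 13 had an unadjusted p under 0.05 (2.65% of all genes, higher in high cells), and DESeq2 called 6 (1.32% of all genes), all higher in the high cells.

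**Figure D1:**
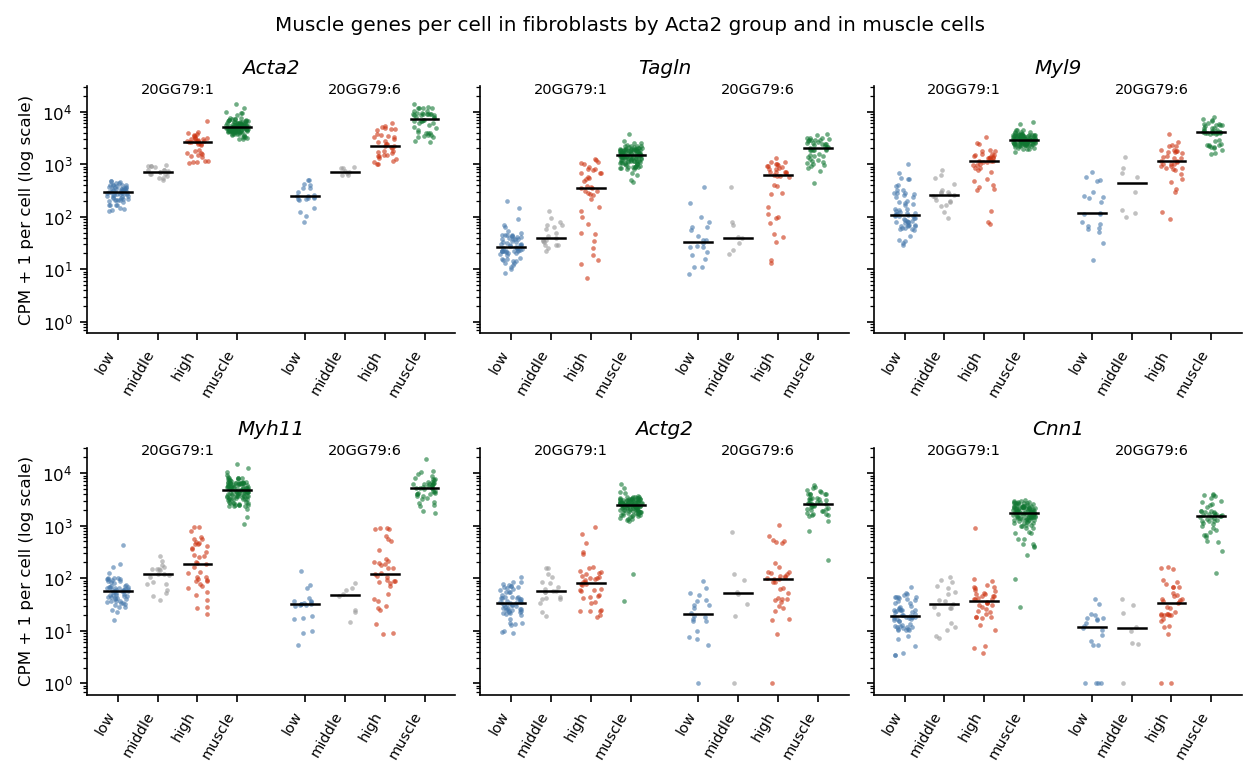
Each point is a cell of mouse 20GG79:1 or 20GG79:6, the vertical axis gives CPM + 1 on a log scale and black bars are medians; low, middle and high are fibroblasts by Acta2, and muscle marks visceral muscle cells. Tagln and Myl9 of high fibroblasts, with medians of 347.4 and 1145 CPM in 20GG79:1, lie below the muscle cells (1468 and 2882 CPM) by less than Myh11, Actg2 and Cnn1 do.

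Myh11, Actg2 and Cnn1, genes of differentiated visceral muscle, had higher medians in high than in low cells but stayed far below the muscle cells. The rule's cap on Myh11 bears on these levels. Myh11, whose upper end the rule fixes, had medians of 56.999 CPM in low and 188.8 CPM in high cells of 20GG79:1, and of 31.03 and 119.8 CPM in 20GG79:6. Muscle cells of the same plates had Myh11 medians of 4705 and 5275 CPM. Of the 73 high cells 45 had 100 CPM of Myh11 or more and 13 had 500 CPM or more.

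Actg2 ran from 8.08 to 103.5 CPM around a median of 33.3 CPM over the low cells of 20GG79:1, and from 17.2 to 937 CPM around 80.8 CPM over its high cells. In 20GG79:6 the low cells had 0 to 86.7 CPM around 19.5 CPM and the high cells 0 to 1037 CPM around 95.7 CPM. The groups overlapped in both mice, and the upper ends rested on a few high cells. The log2 fold change of the sums was 2.24 ± 0.61 (SE, n = 2 mice; edgeR adjusted p = 0.601). Cnn1 had medians of 17.7 and 36.6 CPM in 20GG79:1 and of 10.9 and 32.5 CPM in 20GG79:6, and 1 of 38 and 3 of 35 high cells reached 100 CPM. One high cell of 20GG79:1 had 903 CPM of Cnn1. Its log2 fold change was 1.53 ± 1.03 (SE; edgeR adjusted p = 1.0). Muscle cells had Actg2 medians of 2484 and 2627 CPM and Cnn1 medians of 1747 and 1539 CPM.

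Hhip, a Hedgehog-binding protein that was abundant in the visceral muscle cells (medians of 2298 and 2099 CPM), gave 93.5 CPM in low and 87.6 CPM in high sums of 20GG79:1, and 11.7 and 43.4 CPM in 20GG79:6. The direction of the Hhip sums thus differed between the mice. Over all fibroblasts of a mouse, Spearman's rho of Hhip with Acta2 was 0.41 in 20GG79:1 and 0.57 in 20GG79:6. Des, the muscle intermediate filament desmin, was lower in the high sums, from 45.6 to 15.9 CPM and from 50.8 to 22.5 CPM (log2 fold change -1.34 ± 0.97, SE). Lmod1, which nucleates actin filaments in muscle, went from 6.76 to 31.2 CPM and from 2.55 to 13.2 CPM. Its highest fibroblast, a high cell of 20GG79:1, had 556 CPM.

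Whether these genes kept step with Acta2 was asked by setting each gene's excess, its summed CPM in high minus low fibroblasts, against the excess of Acta2. The quotient is given as a percent of that gene's ratio to Acta2 in the visceral muscle cells of the same mouse, so transcript length cancels. The Acta2 excess was 2239 CPM in 20GG79:1 and 1939 CPM in 20GG79:6. Myh11 stood at 10.5% and 8.62% of the muscle ratio, Actg2 at 8.51% and 14.3%, and Cnn1 at 5.15% and 3.42%. Hhip stood at -0.51% and 3.65%, and Lmod1 at 13.2% and 5.76%.

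Des stood at -13.8% and -6.48%. Of the 15 genes so compared, 7 stood nearer to the muscle ratio in both mice. Tagln was at 63.8% and 89.9%, Myl9 at 74.9% and 71.4%, and Csrp1 at 67.6% and 78.3%. Mylk was at 76.5% and 38.5%, Tpm1 at 56.4% and 39.8%, Tpm2 at 65.5% and 43.2%, and Flna at 41.4% and 63.2%. The other 2 genes, Smtn, which encodes the muscle protein smoothelin, and Cald1, the actin-binding protein caldesmon, differed between the mice, at 63.2% and 0.83% and at 66.6% and 9.23%. The 15 genes thus did not fall into 2 clean sets: in 20GG79:6 Smtn and Cald1 were below Actg2. At the muscle ratio, the Actg2 excess would go with 190.6 CPM of Acta2 in the first mouse and 277.1 CPM in the second. No test was made, since the rule caps Myh11 and the split rests on Acta2.

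**Figure D2:**
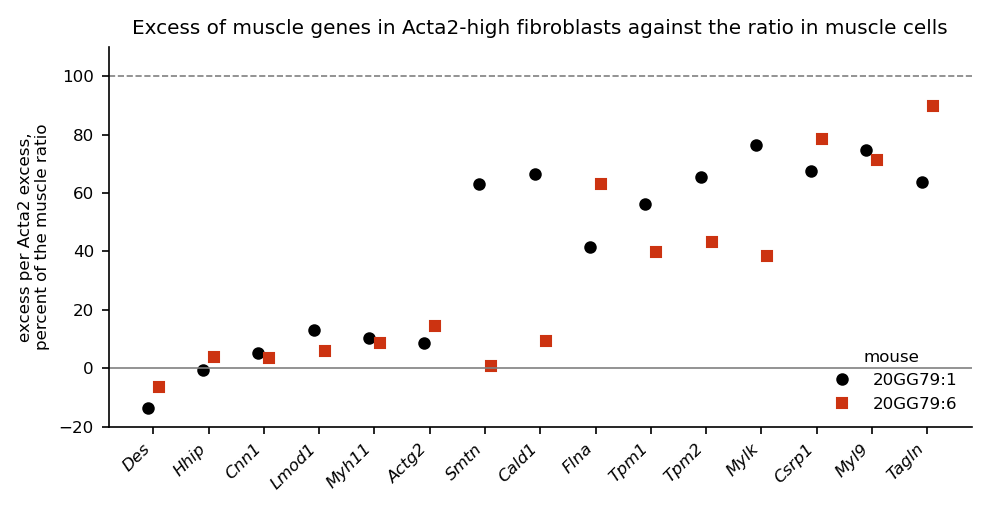
For each gene, the excess in Acta2-high over Acta2-low fibroblasts per excess of Acta2 is shown as a percent of the ratio in visceral muscle cells of the same mouse, with 1 symbol per mouse and the muscle ratio as a dashed line at 100. Des, Hhip, Cnn1, Lmod1, Myh11 and Actg2 lie between -13.8% and 14.3%, Smtn and Cald1 lie at 63.2% and 66.6% in 20GG79:1 but at 0.83% and 9.23% in 20GG79:6, and the other 7 genes lie between 38.5% and 89.9%.

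The cap on Myh11 bears directly on these values. Without it, 50 cells of 20GG79:1 and 14 cells of 20GG79:6 join the Acta2-high group, and the mean over the mice goes to 55.6% for Myh11, 58.7% for Actg2 and 53.6% for Cnn1. The cells so removed had median Myh11 of 3726 and 3612 CPM. Their median Pdgfra was 14.4 and 57.8 CPM, against 1585 and 1579 CPM in the high fibroblasts, while their median Dpt, a matrix protein of fibroblasts, was 569 and 372.1 CPM. They combined muscle levels of Myh11 with moderate Dpt and little Pdgfra.

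In fibroblasts with little Myh11, Tagln and Myl9 had values close to those over all cells. When only fibroblasts with Myh11 under 100 CPM were taken (13 high and 54 low cells in 20GG79:1, 15 and 19 in 20GG79:6), the log2 fold change was 3.19 ± 0.48 for Tagln and 2.31 ± 0.31 for Myl9 (SE). It was 0.80 ± 1.53 for Cnn1 and 1.45 ± 1.10 for Actg2. Little Myh11 did not mean little of other muscle genes, since 1 high cell so kept had 937 CPM of Actg2. An alternative added after the data were seen took only cells whose Hhip, Actg2, Cnn1 and Lmod1 added up to under 200 CPM. In these cells Tagln had 3.20 ± 0.40, Myl9 2.22 ± 0.32 and Flna 1.76 ± 0.26. Actg2 had 0.53 ± 1.14, but it is part of that sum, so the cut itself limits its value. No gene passed the edgeR threshold in either subset.

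Muscle RNA was also measured in cells taken as endothelial, epithelial or immune. The 26 endothelial cells of 20GG79:6, at a median depth of 273771 gene counts, had medians of 172.8 CPM of Acta2, 35.2 CPM of Myh11, 23.1 CPM of Actg2, 10.9 CPM of Cnn1, 21.0 CPM of Tagln and 61.01 CPM of Myl9. The low fibroblasts of that mouse were at or below them for Myh11, Actg2 and Cnn1, with 31.03, 19.5 and 10.9 CPM. They were above them for Acta2 (242.05 CPM), Tagln (32.5 CPM) and Myl9 (115.5 CPM). High fibroblasts were above the endothelial medians for all 6 genes. Endothelial values reached 2662 CPM of Acta2 and 1160 CPM of Myh11. In 20GG79:1 no endothelial cell was found, so endothelium could not be measured there. The 7 epithelial cells of 20GG79:6 had medians of 2858 CPM of Acta2, 3229 of Myh11, 652 of Tagln and 1991 of Myl9. The 2 epithelial cells of 20GG79:1 had 1950, 1248, 650 and 1186 CPM. Immune cells had Acta2 medians of 657 CPM (5 cells, 20GG79:6) and 517 CPM (2 cells, 20GG79:1). The highest immune cell of 20GG79:6, with 8896 CPM of Acta2 and 4394 CPM of Myh11, also met the definition of a visceral muscle cell. These sets were thus not fully apart from muscle. Where this RNA came from was not tested.

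Cell by cell over all fibroblasts of a mouse, Myl9 and Tagln ranked most like Acta2 among the 10 muscle-associated genes compared, while Mylk and Tpm1 ranked less like it than Myh11 and Actg2 did. Over all fibroblasts of 20GG79:1, the cells between the cuts included, Spearman's rho with Acta2 was 0.79 for Myl9 and 0.74 for Tagln, against 0.62 for Myh11, 0.59 for Actg2 and 0.46 for Cnn1. Mylk and Tpm1 each had 0.54 and Tpm2 0.69. Over the 63 fibroblasts of 20GG79:6 it was 0.84 and 0.74, against 0.69, 0.66 and 0.67, with Mylk at 0.50, Tpm1 at 0.46 and Tpm2 at 0.62. Within the high cells alone, Myh11 had 0.31 in the first mouse (38 cells) and 0.70 in the second (35 cells), and Tagln had 0.75 and 0.50. Among these cells Actg2 had 0.37 and 0.67, Cnn1 0.21 and 0.64, and Myl9 0.71 and 0.74. Tagln thus ranked less like Acta2 than Myh11, Actg2 and Cnn1 did within the high cells of 20GG79:6. Against gene counts per cell, Spearman's rho of Acta2 was -0.02 and -0.19 over all fibroblasts, and 0.0021 and -0.47 within the high cells, so in 20GG79:6 the high cells with most Acta2 tended to be shallower. The cells of a mouse share animal and plate, so these values are descriptions.

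Over all 14263 genes outside the rule that passed the filter on low counts, edgeR's quasi-likelihood test called 1 gene at an adjusted p of at most 0.05, which is 0.00701% of the genes tested. That gene is C3 (complement component 3, the central protein of the complement cascade, chr17:57203970-57228136, minus strand), and it was lower in Acta2-high fibroblasts. Its sums went from 496.997 to 5.75 CPM in 20GG79:1 and from 392.8 to 3.42 CPM in 20GG79:6, a log2 fold change of -6.62 ± 0.46 (SE, n = 2 mice; edgeR adjusted p = 0.0312). C3 was concentrated in a few cells. At 100 CPM or more stood 11 of 61 low cells in the first mouse (18.0%, exact Clopper-Pearson 95% interval 9.36% to 30.0%) and 4 of 20 in the second (20.0%, 5.73% to 43.7%). These cells held 98.01% and 99.5% of the group's C3 counts, and the highest cell alone held 25.1% and 38.9%. None of 38 and none of 35 high cells reached 100 CPM, where the exact Clopper-Pearson intervals end at 9.25% and 10.0% and a limit of 3 cells would allow 7.89% and 8.57%.

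The call for C3 was lost when the mouse was left out as a block (edgeR adjusted p = 0.059), with a single Acta2 cut at 750 CPM (0.309) and in 5 other cell or depth selections. Below the threshold the data hold more than 1 gene. At an unadjusted p under 0.05 stood 802 genes (5.62%), with 2.65% of all genes higher in high and 2.97% higher in low cells. DESeq2 on the same sums called 2.89% of the genes, 1.32% higher in high and 1.57% higher in low cells. Only 1 residual degree of freedom is left with 2 mice, so the spread in the edgeR fit is mostly pooled over genes. On simulated counts of this comparison it recovered 17% of 100 genes changed 4-fold and 52% of 100 genes changed 8-fold. Both kinds of change were in the same simulated set of 13685 genes, in which it made 3 false calls. The genes with the smallest p in each direction are therefore given as values that did not pass.

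**Figure D3:**
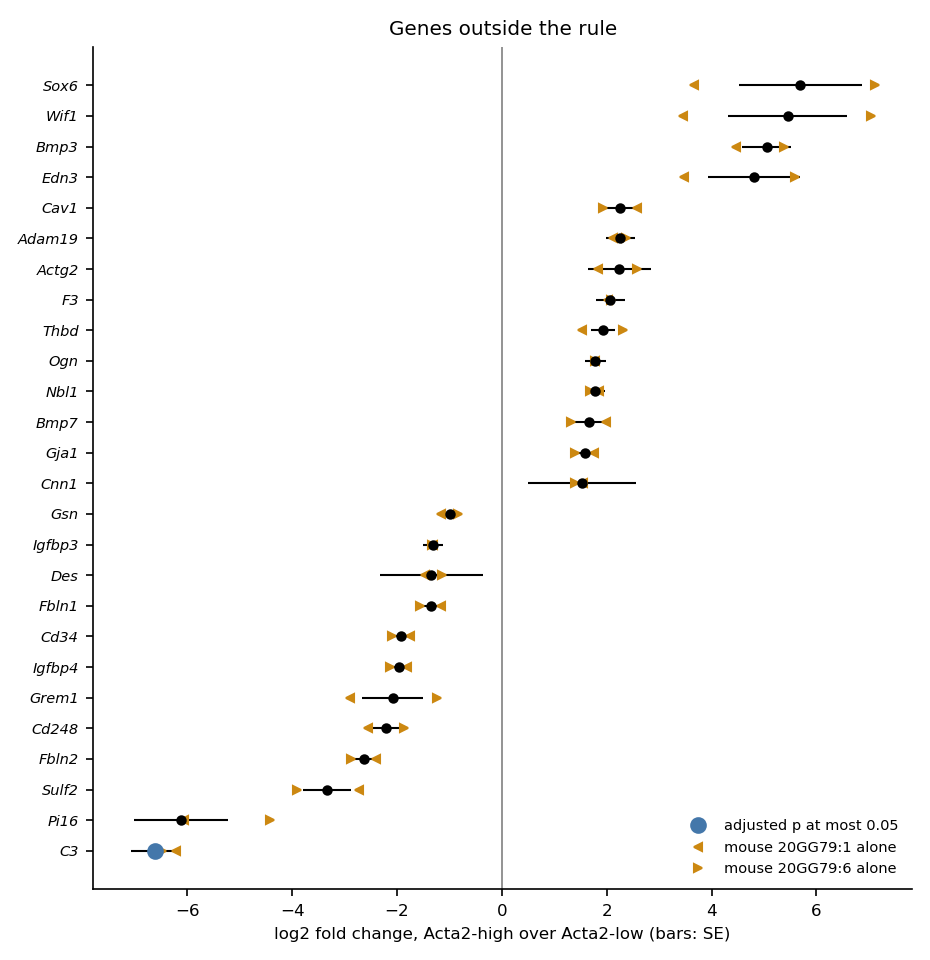
Black points are log2 fold changes of Acta2-high over Acta2-low fibroblasts from edgeR with the SE as bars, triangles give the log2 ratio of each mouse alone, and the blue point marks the gene past the threshold. C3, at -6.62, is the gene called; Bmp3 at 5.05 and Fbln2 at -2.64 have the same direction in both mice.

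Among genes higher in Acta2-high cells, the smallest p belonged to Bmp3, which encodes a BMP family ligand. Bmp3 sums went from 9.18 to 223.6 CPM and from 12.3 to 556 CPM (log2 fold change 5.05 ± 0.47, SE; edgeR adjusted p = 0.115). At 100 CPM or more stood 15 of 38 and 26 of 35 high cells, but 2 of 61 and 1 of 20 low cells. Nbl1, a secreted BMP antagonist, went from 557 to 2006 CPM and from 786 to 2509 CPM. Cav1, the coat protein of caveolae, went from 285.4 to 1706 CPM and from 316.8 to 1207 CPM. Thbd, the surface anticoagulant thrombomodulin, went from 759 to 2191 CPM and from 575 to 2868 CPM. Adam19, a membrane metalloproteinase, and Ogn, the small proteoglycan osteoglycin, completed the group, at log2 fold changes of 2.26 ± 0.27 and 1.79 ± 0.20. Their edgeR adjusted p-values, with those of Nbl1, Cav1 and Thbd, lay between 0.116 and 0.132.

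The subepithelial fibroblast list held genes of both directions, and none passed the edgeR threshold. Of its 27 tested genes 14 differed less than 2-fold in one or both mice or in no common direction, and 9 were at least 2-fold higher in both mice (5.51% of all genes): Bmp3, Bmp5, Bmp7, Wnt5a, Wif1, Edn3, F3, Procr and Sox6. F3, or tissue factor, had medians of 10.1 CPM in low and 689 CPM in high cells of 20GG79:1, and of 46.1 and 888 CPM in 20GG79:6. Its range was 0 to 1490 CPM and 0 to 2525 CPM in the first mouse, so the groups overlapped. The summed counts of F3 were 4.11-fold and 4.26-fold higher (log2 fold change 2.07 ± 0.27, SE; edgeR adjusted p = 0.149). Bmp7, another BMP ligand, had medians of 19.8 and 1061 CPM in the first mouse and of 314.1 and 1436 CPM in the second.

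Sox6, a transcription factor, Edn3, the peptide endothelin 3, and Wif1, a WNT inhibitor, had ratios that were wide and uneven between the mice. Sox6 went from 14.2 to 192.5 CPM in 20GG79:1 and from 0.899 to 261.7 CPM in 20GG79:6, Edn3 from 20.1 to 234.5 CPM and from 1.65 to 126.96 CPM, and Wif1 from 26.6 to 300.6 CPM and from 1.198 to 290 CPM. The low sums of the second mouse rested on 6, 11 and 8 counts, so the size of its ratios is uncertain. At 100 CPM or more stood 11 of 38 and 14 of 35 high cells for Wif1 and 15 and 14 for Sox6. Most high cells were thus below 100 CPM for both genes.

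The subepithelial list also held 4 genes at least 2-fold lower in the high cells of both mice (5.9% of all genes): Wnt4, Aldh1a3, Col6a5 and Tnfrsf11b. Col6a5, a collagen VI chain, went from 89.1 to 9.58 CPM and from 136.4 to 18.6 CPM. Tnfrsf11b, the decoy receptor osteoprotegerin, went from 88.4 to 22.6 CPM and from 115.5 to 1.203 CPM. Foxl1, the transcription factor used to mark telocytes, gave 63.01 and 124.1 CPM in low and high cells of the first mouse and 148.9 and 193.3 CPM in the second (log2 fold change 0.68 ± 0.46, SE). Its direction turned to -0.46 in cells with Myh11 under 100 CPM. Foxl1 was not confined to fibroblasts, since 38 of 110 and 12 of 44 visceral muscle cells had 100 CPM or more. The list's median log2 fold change was 0.27, against 0.03 over all genes, and DESeq2 called 7 members higher (1.32% of all genes) and 4 lower (1.57%).

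The crypt-base and adventitial list went the other way. Of its 27 tested genes 11 were at least 2-fold lower in the high cells of both mice (5.9% of all genes) and 0 were higher (5.51%), with a median log2 fold change of -1.59. They were C3, Cd34, Pi16, Grem1, Ccl11, Clec3b, Sfrp1, Igfbp6, Cd81, P2ry1 and Wnt2b. Cd34, a surface sialomucin of adventitial fibroblasts, had medians of 1473 CPM in low and 28.3 CPM in high cells of 20GG79:1, and of 450.5 and 22.8 CPM in 20GG79:6. Single high cells reached 3654 and 1951 CPM, so the groups overlapped. The log2 fold change of Cd34 was -1.92 ± 0.25 (SE, n = 2 mice; edgeR adjusted p = 0.149). Pi16, a peptidase inhibitor of adventitial fibroblasts, went from 208.4 to 2.16 CPM and from 36.5 to 0.740 CPM, but only 6 of 61 and 1 of 20 low cells had 100 CPM or more. Grem1, the BMP antagonist of crypt-base stroma, went from 295.8 to 39.1 CPM and from 125.5 to 52.7 CPM.

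Added up cell by cell, the lists set most, but not all, high cells apart from most low cells. The subepithelial sum exceeded the crypt-base and adventitial sum in 26 of 38 high cells of 20GG79:1 (68.4%, exact Clopper-Pearson 95% interval 51.3% to 82.5%) and in 8 of its 61 low cells (13.1%, 5.84% to 24.2%). In 20GG79:6 it did so in 29 of 35 high cells (82.9%, 66.4% to 93.4%) and in 5 of 20 low cells (8.66% to 49.1%). Of the cells between the cuts 4 of 19 and 2 of 8 did so, shares nearer to those of the low cells. Genes with high counts weigh most in such sums, and the cells of a mouse are not replicates. The lists were chosen with earlier results of these data known, so these shares are a description and no independent test. The Acta2 cut therefore did not separate the list sums completely.

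**Figure D4:**
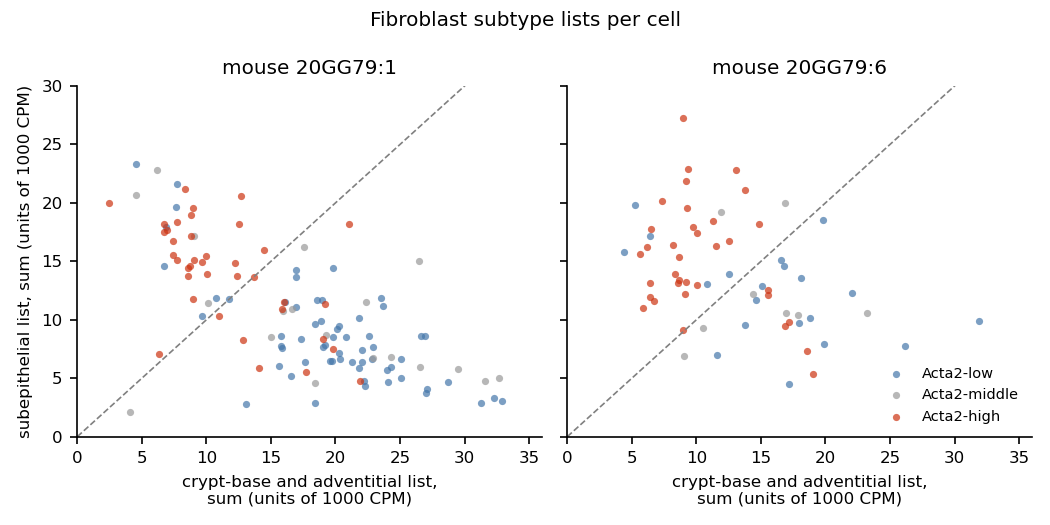
Each point is a fibroblast, with the summed CPM of the crypt-base and adventitial list on the horizontal axis and of the subepithelial list on the vertical axis, in units of 1000 CPM; the dashed line marks equal sums. Above the line lie 26 of 38 and 29 of 35 Acta2-high cells, and 8 of 61 and 5 of 20 Acta2-low cells.

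Pdgfra, which the rule used, was higher in the high group, so the comparison was repeated among cells rich in it. Taking only cells with Pdgfra of at least 500 CPM, an alternative added after the data were seen, left 27 high and 22 low cells in 20GG79:1 and 31 and 10 in 20GG79:6. In these cells edgeR called 10 genes, 3 higher and 7 lower in the high group. Tagln had a log2 fold change of 4.29 ± 0.52 (SE, n = 2 mice; edgeR adjusted p = 0.0221) and Bmp3 of 4.37 ± 0.56 (0.0287). Cd34 had -2.99 ± 0.41 (0.0456) and Igfbp4, which binds insulin-like growth factors, -2.64 ± 0.31 (0.0221). Bmp7 was at 1.22 ± 0.31 (0.388). Differences in Tagln, Bmp3 and Cd34 were thus at hand among Pdgfra-rich cells as well.

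Matrix genes leaned toward the low cells. Of 36 fibrillar and elastic matrix genes 8 were at least 2-fold lower in the high cells of both mice (5.9% of all genes), namely Eln, Fbln1, Fbln2, Mgp, Mfap4, Col14a1, Adamts2 and Pcolce2, and 1, Ogn, was higher (5.51%). Fbln2, the elastic fibre protein fibulin 2, had medians of 1079 CPM in low and 18.0 CPM in high cells of 20GG79:1, and of 1373 and 14.3 CPM in 20GG79:6. Its log2 fold change was -2.64 ± 0.27 (SE, n = 2 mice; edgeR adjusted p = 0.115). Eln, elastin itself, went from 965 to 123.8 CPM and from 303.6 to 130.1 CPM. The main collagens lay close together: Col1a1 gave 7103 and 5893 CPM in the first mouse and 6213 and 5579 CPM in the second, and Col3a1 gave 8920 and 7560 CPM and 7267 and 6115 CPM. The other genes with the smallest p on the low side were Igfbp4, Igfbp3, Cd248, Gsn and Sulf2, with log2 fold changes between -3.34 (Sulf2, a heparan sulfate editing enzyme) and -0.996 (Gsn, the actin-severing gelsolin).

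Genes of the myofibroblast and TGF-β response did not share a direction. Of 27 tested, 2 were at least 2-fold higher in both mice (5.51% of all genes), the adhesion molecule Cdh11 and the activin subunit Inhba, and 2 were lower (5.9%), Tgfb3 among them. The median was 0.03, the same as over all genes. Postn, the matricellular protein periostin, gave 4259 and 3487 CPM in low and high cells of 20GG79:1 and 3575 and 2254 CPM in 20GG79:6. Inhba went from 18.97 to 124.4 CPM and from 24.3 to 121.1 CPM, and Tgfb3, a TGF-β ligand, from 178.6 to 57.4 CPM and from 180.5 to 13.7 CPM. DESeq2 called Inhba higher (1.32% of all genes) and Tgfb3 lower (1.57%).

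Common cytoskeletal genes differed less than the muscle forms. Of 27 actin cytoskeleton genes and targets of serum response factor, 1 (Palld, the stress fibre protein palladin) was at least 2-fold higher in both mice (5.51% of all genes) and 0 were lower (5.9%). With smaller differences, 13 of the 27 had an unadjusted p under 0.05 toward the high cells (2.65% of all genes), as many as in the contractile list, and the median log2 fold change was 0.62. Actb and Actg1, the cytoplasmic actins, had log2 fold changes of 0.62 ± 0.19 and 0.61 ± 0.22 (SE), and reads of near-identical actin genes cannot be fully parted. Of 15 tested muscle channel and receptor genes, 3 were at least 2-fold higher (5.51% of all genes): Kcnmb1, a potassium channel subunit, Pde5a, which degrades cyclic GMP, and Trpc6, a cation channel. Kcnmb1 went from 4.84 to 71.5 CPM and from 5.39 to 47.1 CPM, and 8 of 38 and 7 of 35 high cells reached 100 CPM, against 0 of 61 and 0 of 20 low cells.

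Signalling, basement membrane and metabolic genes gave few wide differences. In the Hedgehog, BMP and WNT list 1 of 33 was at least 2-fold higher in high cells of both mice (Foxf2, a Hedgehog-regulated transcription factor), against 5.51% of all genes, and 3 were lower (Fzd1, Axin2 and Sfrp4), against 5.9%. In the basement membrane list 1 of 21 was higher (Col4a5, a collagen IV chain) and 2 were lower, Nid2 among them, against the same shares of all genes. Bmp4, a BMP ligand made by most of these cells, gave 1342 and 1545 CPM in the first mouse and 1325 and 1675 CPM in the second. Of 29 dissociation and stress genes 0 were higher (5.51% of all genes) and 1 was lower (Ier3; 5.9%), with a median of -0.57, and 7 had an unadjusted p under 0.05 toward the low cells (2.97% of all genes). None of 30 oxidative phosphorylation genes differed 2-fold in both mice, and their median was 0.07.

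Cspg4, the second reporter gene and a pericyte marker, had medians of 24.0 and 53.4 CPM in low and high cells of 20GG79:1 and of 44.4 and 60.4 CPM in 20GG79:6. Its log2 fold change was 0.77 ± 0.42 (SE; edgeR adjusted p = 1.0). Pdgfrb gave -0.31 ± 0.26. Median sums of the 10 pericyte markers were 149.5 CPM in low and 371.1 CPM in high cells of the first mouse and 118.8 and 575 CPM in the second, with Higd1b, Ndufa4l2, Colec11 and Vtn among those at a median of 0 in all 4 groups. Of the 6 pericyte markers tested, 1 (Abcc9) was at least 2-fold higher in the high cells of both mice (5.51% of all genes). None was lower (5.9%), and their median log2 fold change was 0.60.

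Of the 10 vascular muscle markers 9 had a median of 0 in all groups. The exception was Casq2, a calcium store protein, whose sums went from 11.2 to 460.5 CPM and from 67.5 to 505.8 CPM. Of the 5 vascular muscle markers tested, only Casq2 was at least 2-fold higher in the high cells of both mice (5.51% of all genes). Adra1a was at least 2-fold lower (5.9%), and the median log2 fold change of the 5 was -0.37. The sum of the 6 markers of interstitial cells of Cajal had medians of 41.5 and 850 CPM in the first mouse and of 261.3 and 802 CPM in the second. That sum followed Gja1, the gap junction protein connexin 43, with sums of 255.2 and 864 CPM and of 313.8 and 830 CPM, whereas Kit, which defines those cells, had a median of 0 in every group. All 10 immune, 8 glial and 6 mesothelial markers had medians of 0 in all 4 groups. The 11 epithelial markers added up to medians of 2.71 and 6.84 CPM in 20GG79:1, and to 68.7 and 149.8 CPM in 20GG79:6. The part of the pericyte and epithelial markers in the differences was not tested. With cells of 50 CPM or more of any of 5 markers of other cell types left out, Ptprc, Kit, Rgs5 and Pecam1 among them, edgeR called 0 genes, 700 had an unadjusted p under 0.05, and the named genes kept their direction.

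No other mouse allowed the comparison to be repeated. The same gates found 23 fibroblasts in the other mice, 21 low and 2 high, and none had 5 cells in both groups. The 2 high cells came from 20GG95:3, a mouse of the same dual reporter line, which gave 0 low cells. Mice 18CB155:7 (4 low cells) and 19CB4:5 (8 low cells) belong to the reporter line PDGFRbGFP, so the line differed as well. The 21 low fibroblasts had a median of 96.9 CPM of Acta2, 11.5 CPM of Tagln, 36.7 CPM of Myl9 and 0 CPM of Myh11, Actg2 and Cnn1. Their median depth was 138296 gene counts.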

How the data were processed

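Single cells of mouse colon were measured by Smart-Seq2. The authors' deposited values are raw counts for 46517 Ensembl genes and 92 spike-ins, with no normalization. Per the submitters' processing notes the tools were bcl2fastq, Bowtie, Bowtie2, featureCounts and Subread, with build GRCm38. Versions, settings and any cell filter were not given in the sources used here. Symbols came from GENCODE vM21 for 46005 genes. CPM per cell used all counts but spike-ins. Counts were summed per mouse and group (4 sums of 6677054 to 18187247 counts) and tested with edgeR 4.0.16 under R 4.3.3 (TMM, filterByExpr, robust quasi-likelihood fit, mouse as a block). The block is given because both groups come from the same mice. The SE is the log2 fold change over the square root of F. P-values were Benjamini-Hochberg adjusted over all genes but the 8 of the rule. DESeq2 1.42.0 and limma 3.58.1 were alternatives. The edgeR step was tested on simulated data. No doublet caller was run. The cells, the 11 gene lists and the 11 marker lists were chosen with earlier results of these data known. Named genes were 15 fixed ones, called genes, the 8 with the smallest p per direction that had at least 50 CPM and a count in at least 25% of cells, and list members and others chosen after their values were seen. A few list members are not reported here.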

Additional observations from a re-analysis of the deposited data

How the results depend on the processing

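The 1 called gene (edgeR, adjusted p of at most 0.05) was 0.00701% of those tested, and that share depended on nearly every choice. It was 0.014% with RLE size factors, 0.457% with no filter on low counts, 0% with no replicate block, 2.89% with DESeq2 and 0.126% with limma on mean CPM per cell. It was 0.637% with Acta2 cuts at 2000 and 200 CPM (74 genes, 4 low cells left in 20GG79:6), 0.265% with cells thinned to 50000 counts (30 genes) and 0.0769% with Pdgfra of at least 500 CPM (10 genes). It was 0% with a single Acta2 cut at 750 CPM, with Myh11 under 100 CPM, with the stricter fibroblast gate, without cells holding other markers, with at least 100000 counts per cell and with the muscle gene sum under 200 CPM. At an unadjusted p under 0.05 those 6 and the fit with no replicate block gave 660 to 776 genes. The cause was not tested. C3 and the 14 genes with the smallest p kept their direction in all of these settings and in each mouse alone. Other genes reversed: Hhip was at -0.093 without mouse 20GG79:6 and at 1.81 without mouse 20GG79:1, Lmod1 at -0.032 and Foxl1 at -0.46 with Myh11 under 100 CPM, Foxl1 at -0.043 with Pdgfra of at least 500 CPM, and Ier3 at 0.72 with Acta2 cuts at 2000 and 200 CPM, where the median of all genes was 0.49. Without the Myh11 cap the percent of the muscle ratio was 55.6 for Myh11, 58.7 for Actg2, 53.6 for Cnn1 and 84.2 for Myl9. From medians over cells it was 6.10 for Myh11, 84.1 for Myl9 and 116.9 for Mylk. Leaving out each mouse gave 8.62 to 10.5 for Myh11, 8.51 to 14.3 for Actg2, 3.42 to 5.15 for Cnn1, 71.4 to 74.9 for Myl9, 38.5 to 76.5 for Mylk and 63.8 to 89.9 for Tagln. Leaving out a mouse left no residual degree of freedom, so it gave ratios with no test, and no other mouse could be added.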
